A study of Mus musculus with 13 samples.

Results

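The retinas of TMB-treated Rpe65-/- mice were compared with those of wild-type mice by RNA sequencing, and the question was which differences from wild type remained while the animals were on the drug diet. The comparison took in 9 of the 13 libraries of the series, chosen by their group: 5 TMB libraries and 4 wild-type libraries, with the deposited raw counts of nuclear genes. Rpe65-/- mice lack the retinoid isomerase of the pigment epithelium in every cell and are a model of early-onset inherited blindness. TMB mice were Rpe65-/- and ate chow with 3 drugs, tamsulosin and metoprolol, which block alpha-1 and beta-1 adrenergic receptors, and bromocriptine, which activates D2-type dopamine receptors, from postnatal day 22 until collection on day 64. They comprised 3 libraries with a female letter (F1, F3, F4) and 2 with a male letter (M5, M6). The other Rpe65-/- mice, called vehicle, ate the base chow, were collected on the same day (n = 4), and are used only as values set beside the TMB values. Wild-type mice were C57BL/6J animals of 2 months on the base diet, with libraries M1, M2, F3 and F4. The design description of the series counts 3 wild-type mice, whereas the labels hold these 4 libraries, and all 4 were used. Each library came from 1 retina of 1 mouse, so p-values measure the spread between these retinas. The labels give a C57BL/6J background for the Rpe65-/- mice, whereas the methods call the exact background of the line unknown and probably mostly C57BL/6J. Whether knockout and wild-type mice were littermates: not given in the sources used here. The knockout, its colony and the drug diet differ together between TMB and wild type and cannot be told apart in this comparison.

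Rods and cones detect light with an opsin bound to a vitamin A derived chromophore, which the pigment epithelium rebuilds after each bleaching, and RPE65 carries out the isomerization step. Without it the opsins stay largely unliganded, cones lose their opsin transport and die early, and rods survive longer with little response to light. Stressed photoreceptors release signals such as endothelin 2, and Mueller glia, the radial glia of the retina, answer with JAK-STAT signalling and with the filament protein GFAP.

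To show the regulatory sequence of the genes on which the results turn, promoters of a pair of cone genes that were lower and a pair of stress genes that were higher in TMB libraries are printed from RefSeq on build GRCm38.p6, each from 250 bases before to 50 bases after the annotated start. Capitals mark matches to TAATCC (a CRX or OTX homeodomain type motif, CRX being a photoreceptor transcription factor) or to TTCNNNGAA (a STAT type motif), searched on both strands.
Opn1sw promoter, chr6:29380464-29380763, minus strand: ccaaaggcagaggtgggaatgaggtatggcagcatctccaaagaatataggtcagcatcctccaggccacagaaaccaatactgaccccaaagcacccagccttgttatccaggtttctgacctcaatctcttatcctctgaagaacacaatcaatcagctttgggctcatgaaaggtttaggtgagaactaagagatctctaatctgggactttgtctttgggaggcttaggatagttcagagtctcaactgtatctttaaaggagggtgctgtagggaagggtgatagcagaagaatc
Gnat2 promoter, chr3:108092816-108093115, plus strand: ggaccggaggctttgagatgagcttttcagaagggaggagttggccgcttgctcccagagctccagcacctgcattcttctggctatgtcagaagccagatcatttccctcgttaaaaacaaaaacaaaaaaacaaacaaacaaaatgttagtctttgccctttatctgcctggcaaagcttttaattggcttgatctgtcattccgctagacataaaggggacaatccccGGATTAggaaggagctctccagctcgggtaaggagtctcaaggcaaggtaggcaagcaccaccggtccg
Edn2 promoter, chr4:120160956-120161255, plus strand: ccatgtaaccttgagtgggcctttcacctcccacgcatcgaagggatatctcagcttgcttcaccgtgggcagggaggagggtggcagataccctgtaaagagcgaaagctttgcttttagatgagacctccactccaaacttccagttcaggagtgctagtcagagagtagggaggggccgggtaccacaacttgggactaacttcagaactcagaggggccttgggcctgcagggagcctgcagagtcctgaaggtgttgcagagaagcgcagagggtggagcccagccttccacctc
Gfap promoter, chr11:102897151-102897450, minus strand: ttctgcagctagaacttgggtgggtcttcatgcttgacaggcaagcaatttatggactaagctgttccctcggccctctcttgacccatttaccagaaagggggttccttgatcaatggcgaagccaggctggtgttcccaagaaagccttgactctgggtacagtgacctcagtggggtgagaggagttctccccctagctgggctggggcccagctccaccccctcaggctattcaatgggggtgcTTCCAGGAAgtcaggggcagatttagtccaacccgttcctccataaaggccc
Of the 15 cone genes listed, 11 had a promoter in the table, and of these 3 held TAATCC and 0 held the STAT type motif. Of the 20 stress and gliosis genes listed, 17 had one, of which 1 held TAATCC and 2 held the STAT type motif. Over all 32851 promoters of the table the shares were 7.06% for TAATCC and 8.3% for the STAT type motif. These matches are a description of the letters in the windows, and neither Opn1sw nor Edn2 held a match.

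Nuclear counts totalled 13677803 to 16179633 per TMB library and 13512155 to 16449989 per wild-type library, and a count of 0 in one library allows up to 3 counts, or 0.182 to 0.222 CPM (each count relative to the TMM-scaled library total). Rpe65 itself had 0, 0, 3, 4 and 7 counts in TMB libraries, against 106, 226, 135 and 72 counts in wild-type libraries, so the labels of all 9 libraries fitted the gene. It fell by 5.55 on the log2 scale (SE 0.52, adjusted p = 5.47e-06). Rod arrestin (Sag), a defining photoreceptor transcript, ranged from 5513 to 9079 CPM in TMB libraries and from 3542 to 4923 CPM in wild-type libraries. One library stood apart from its group. On the first principal component of log2 CPM, which held 38.8% of the variance, TMB libraries lay between -4.47 and 19.22 and 3 wild-type libraries between -65.04 and -52.89, whereas wild type F4 lay at -0.89. In the 20% of genes with the highest GC content, the mean deviation from the gene mean was -0.19 to 0.13 (log2) in TMB libraries, 0.28 in wild type F4 and -0.49 to -0.33 in the other wild-type libraries. Results below are given with all 9 libraries, and beside them the counts of gene lists without wild type F4. That fit called 38.0% of 17092 genes (19.6% higher and 18.4% lower), and counts of list members without wild type F4 are to be read against these shares. Lens genes, carried along in dissection, varied by library: the mean centred level of 11 tested lens genes was -1.90 to 1.39 (log2) in TMB libraries and -3.59 to 3.53 in wild-type libraries.

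TMB-treated Rpe65-/- retinas differed from wild type in 1600 of 16782 genes tested (9.53%; edgeR quasi-likelihood test, adjusted p under 0.05), of which 757 were higher (4.51%) and 843 lower (5.02%). Among the strongest losses, besides Rpe65, were cone photoreceptor genes and the histamine-forming enzyme gene Hdc, and higher genes included the photoreceptor stress signal Edn2 and the noradrenaline transporter gene Slc6a2. Of the called genes 429 differed by at least 2-fold (242 higher, 187 lower) and 788 by under 1.5-fold. In 880 genes every TMB library lay above every wild-type library (5.24% of genes tested), and in 850 every TMB library lay below (5.06%). Of the 1600 called genes 1197 did not overlap between the groups. The median log2 fold change of all genes tested was -0.003.

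Vehicle, whose comparison uses the same wild-type libraries, differed from wild type in 5697 genes (33.9%), 2629 of them higher (15.7%) and 3068 lower (18.3%). Of these, 1372 were called in the same direction under TMB, 634 higher and 738 lower, and 0 in the opposite direction. That is 24.1% of the genes called in vehicle and 85.8% of those called in TMB libraries. A further 228 genes were called with TMB only and 4325 with vehicle only, a split that does not show that the groups differ in those genes. In the direct test of TMB against vehicle 0 genes were called by edgeR (0.0%), with 3064 at an unadjusted p under 0.05, 0 by limma-trend and 63 by DESeq2. With only the TMB and vehicle libraries in the fit, 2402 genes were called.

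The count against wild type turned on which libraries were in it. Without wild type F4 the fit called 6490 genes, 1595 of them among the 1600, and without wild type M1 or M2 it called 896 or 944 genes. Without TMB F3 or TMB F4 it called 1007 or 973. A correction for the GC trend in each library gave 2642 called genes, of which 1472 were among the 1600.

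**Figure D1:**
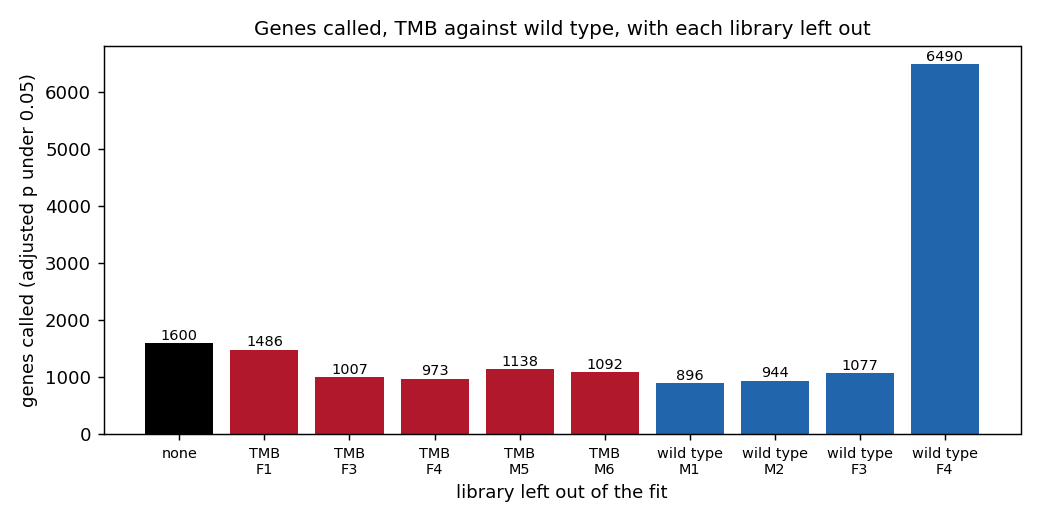
Number of genes called between TMB and wild type (bars, adjusted p under 0.05) with all libraries (black) and with each TMB library (red) or wild-type library (blue) left out. The count lay between 896 and 1486 for 8 of the 9 libraries left out and reached 6490 without wild type F4.

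Cone genes were the list with the lowest median apart from the lens genes. Of 15 cone phototransduction and identity genes tested, 13 fell in TMB libraries and 1 rose, with a median log2 fold change of -1.73 against -0.003 for all genes, and 13 did not overlap with wild type from below. In vehicle the numbers were the same, 13 lower and 1 higher, with a median of -1.82. In bulk retina fewer cones and less RNA per cone cannot be told apart.

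Opn1sw, the short-wavelength cone opsin on chromosome 6 (29376671 to 29388468, GRCm38), had 7.15, 8.91, 9.49, 9.76 and 5.88 CPM in TMB libraries, against 362, 365, 380 and 389 CPM in wild-type libraries. The groups were far apart, with TMB M6 lowest. It fell by 5.50 on the log2 scale (SE 0.32, adjusted p = 2.34e-08), and its change in vehicle was -5.38. Part of its transcript sequence (13.2%) is shared with the overlapping gene Calu, so some of its low counts may belong to that gene. Pde6h, the inhibitory subunit of the cone phosphodiesterase, had 5.22, 6.22, 6.55, 5.50 and 4.31 CPM in TMB libraries, against 172, 174, 138 and 155 CPM in wild-type libraries. TMB M6 was again lowest and the groups did not overlap. Its change was -4.84 (SE 0.24, adjusted p = 2.72e-09). Pde6c, the catalytic subunit of the same enzyme, stood at 19.96, 18.8, 20.8, 22.8 and 13.8 CPM in TMB libraries and 166, 151, 153 and 124 CPM in wild-type libraries, a fall of 2.95 (SE 0.17, adjusted p = 2.63e-08).

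Arr3, the cone arrestin that quenches activated opsin, had 39.6, 49.5, 53.4, 49.8 and 30.2 CPM in TMB libraries, against 253, 316, 238 and 315 CPM in wild-type libraries. It fell by 2.65 on the log2 scale (SE 0.16, adjusted p = 3.56e-08), with TMB M6 and TMB F1 lowest. Gnat2, the cone transducin alpha subunit on chromosome 3 (108092789 to 108101432), was the most even of them, at 38.0, 36.5, 37.1, 41.5 and 32.2 CPM in TMB libraries, against 191, 188, 190 and 182 CPM in wild-type libraries (log2 fold change -2.34, SE 0.10, adjusted p = 5.47e-10). Cnga3, a subunit of the cone cyclic nucleotide-gated channel, had 1.72, 1.98, 2.69, 2.69 and 1.23 CPM in TMB libraries, against 14.5, 11.4, 13.9 and 16.5 CPM in wild-type libraries (-2.76, SE 0.22, adjusted p = 1.01e-06). TMB M6 was the lowest of the TMB libraries in each of these 6 genes.

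Other members, named after their values were seen, ran from strong to slight. Opn1mw, the middle-wavelength cone opsin, averaged 26.0 ± 6.15 CPM in TMB libraries and 151 ± 18.8 CPM in wild-type libraries (SD, n = 5 and 4), and fell by 2.53 (SE 0.17, adjusted p = 1.15e-07). Otop3 changed by -1.73, Gngt2 by -1.59 and Cngb3 by -1.51. Without wild type F4, which was at 45.2 CPM of Gngt2 while the others were at 16.4 to 18.8, Gngt2 changed by -1.11 (adjusted p = 1.87e-05). Slc24a2 (-0.65), Thrb (-0.44) and Ccdc136 (-0.43), which are also used outside cones, fell by less. Rxrg, a nuclear receptor of cones, changed by -0.46 and did not pass the test (adjusted p = 0.125).

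Gnb3 went the other way. This beta subunit of cone transducin, which ON bipolar cells use as well, had 366, 465, 411, 372 and 351 CPM in TMB libraries, against 249, 246, 241 and 328 CPM in wild-type libraries, a log2 fold change of 0.57 (SE 0.12, adjusted p = 0.00845). All TMB libraries lay above wild type, with wild type F4 closest to them.

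**Figure D2:**
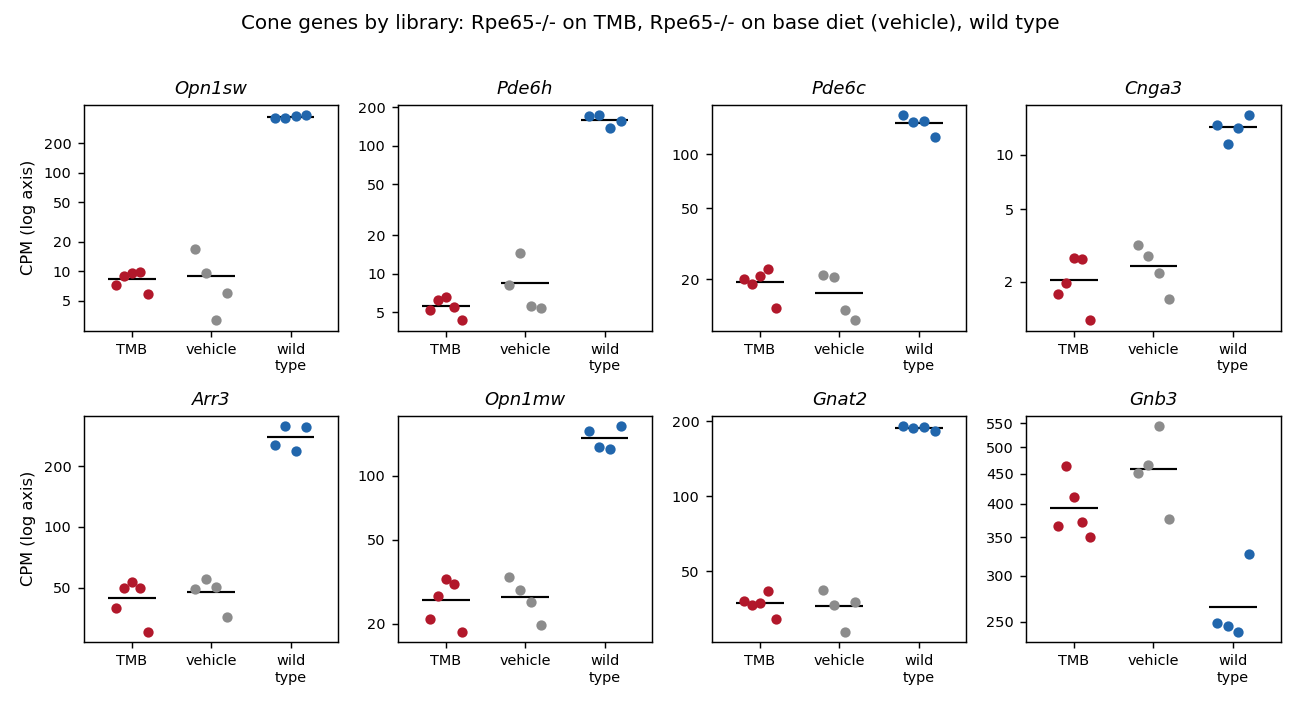
CPM on a log axis for 8 cone genes in each library of TMB (red, n = 5), vehicle (grey, n = 4) and wild type (blue, n = 4), with black lines at group means. In 7 genes the TMB and vehicle points lie together and below every wild-type point, and in Gnb3 they lie above.

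Rod genes changed less and in both directions. Of 24 rod phototransduction genes 6 fell and 1 rose, with a median of -0.22. In vehicle 10 fell and 1 rose, with a close median of -0.25. Over all genes 18.3% were called lower in vehicle, against 5.02% with TMB. With wild type F4 left out 12 fell and 3 rose. Grk1, a kinase that quenches rod phototransduction, had 2058, 1970, 1888, 1929 and 1941 CPM in TMB libraries, against 2763, 2852, 2850 and 2805 CPM in wild-type libraries (-0.53, SE 0.08, adjusted p = 0.000436). The groups did not overlap. Rgs9bp, the anchor of the complex that turns transducin off, changed by the like amount, -0.54 (SE 0.07, adjusted p = 0.000143). Pdc, phosducin, which binds transducin beta-gamma, changed by -0.58 (adjusted p = 0.00964) with an overlap at wild type F4. Crx, the transcription factor, named after its values were seen, averaged 1089 ± 62.6 CPM in TMB libraries and 1376 ± 76.6 CPM in wild-type libraries (SD, n = 5 and 4) and fell by 0.34 (adjusted p = 0.01).

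Sag, rod arrestin, was the rod gene that rose. It had 7241, 5513, 7869, 9079 and 9053 CPM in TMB libraries, against 3959, 3542, 4102 and 4923 CPM in wild-type libraries, a log2 fold change of 0.91 (SE 0.14, adjusted p = 0.00046). Its vehicle libraries stood at 9120 to 9894 CPM (1.19 against wild type), and the unadjusted p of TMB against vehicle was 0.0524 (adjusted p = 0.275), so the lower TMB values did not pass. Among outer segment and interphotoreceptor genes, 3 of 20 rose and 2 fell, and without wild type F4 4 rose and 4 fell. Impg2, a proteoglycan of the matrix around outer segments, had 1700, 1414, 1647, 1432 and 1597 CPM in TMB libraries, against 762, 696, 841 and 556 CPM in wild-type libraries (1.13, SE 0.13, adjusted p = 4.38e-05). Rdh8, which reduces the all-trans retinal released by bleached opsin, rose by 0.61 (SE 0.10, adjusted p = 0.00112), and Rdh12, another photoreceptor retinol dehydrogenase, fell by 0.38 (adjusted p = 0.00629).

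At the rod output, Stx3, the syntaxin of ribbon synapses, had 578, 479, 516, 525 and 571 CPM in TMB libraries, against 1085, 1040, 1036 and 823 CPM in wild-type libraries (-0.90, SE 0.13, adjusted p = 0.000426). It was the single gene of 17 ribbon synapse genes that fell, and Cacna1f, the calcium channel of those synapses, was the single one that rose (0.30, adjusted p = 0.0289). Leaving out wild type F4 gave 5 lower and 3 higher of the 17, beside 18.4% lower and 19.6% higher over all genes in that fit. Rod and ON bipolar genes were 3 lower of 14 (6 lower and 3 higher without wild type F4), among them Lrit3 (-0.37, adjusted p = 0.0207), a synaptic partner of the ON bipolar receptor complex, and Rgs7 (-0.33, adjusted p = 0.0224), which shuts that pathway off. Cone bipolar genes were 3 higher of 12 (5 higher without wild type F4), among them Fezf2 (0.73, adjusted p = 0.0159), a transcription factor, and Cabp5 (0.26, adjusted p = 0.0492), a calcium-binding protein. Of 21 alternative settings, Stx3 was called in 21, Fezf2 in 17, Lrit3 in 16, Rgs7 in 11, Cacna1f in 9 and Cabp5 in 7.

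Of 15 ganglion cell genes 4 fell and 0 rose, with a median of -0.26, and without wild type F4 6 were lower and 1 higher, with a median of -0.12. Pou4f2, a transcription factor of ganglion cells, averaged 10.9 ± 1.94 CPM in TMB libraries and 16.5 ± 2.02 CPM in wild-type libraries (SD, n = 5 and 4; -0.60, SE 0.14, adjusted p = 0.0124), Nefl, the light neurofilament, changed by -0.54 (adjusted p = 0.00284), Slc17a6 by -0.53 and Pou4f1 by -0.37. Calb1, calbindin of horizontal and amacrine cells, had 75.2, 59.8, 63.3, 70.7 and 78.0 CPM in TMB libraries, against 150, 134, 141 and 88.7 CPM in wild-type libraries (-0.89, SE 0.13, adjusted p = 0.00046). It was the single called gene of 18 amacrine and horizontal genes. Without wild type F4 these were 6 lower and 2 higher, with a median of -0.22. Over all genes that fit called 18.4% lower and 19.6% higher, with a median of 0.027.

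**Figure D3:**
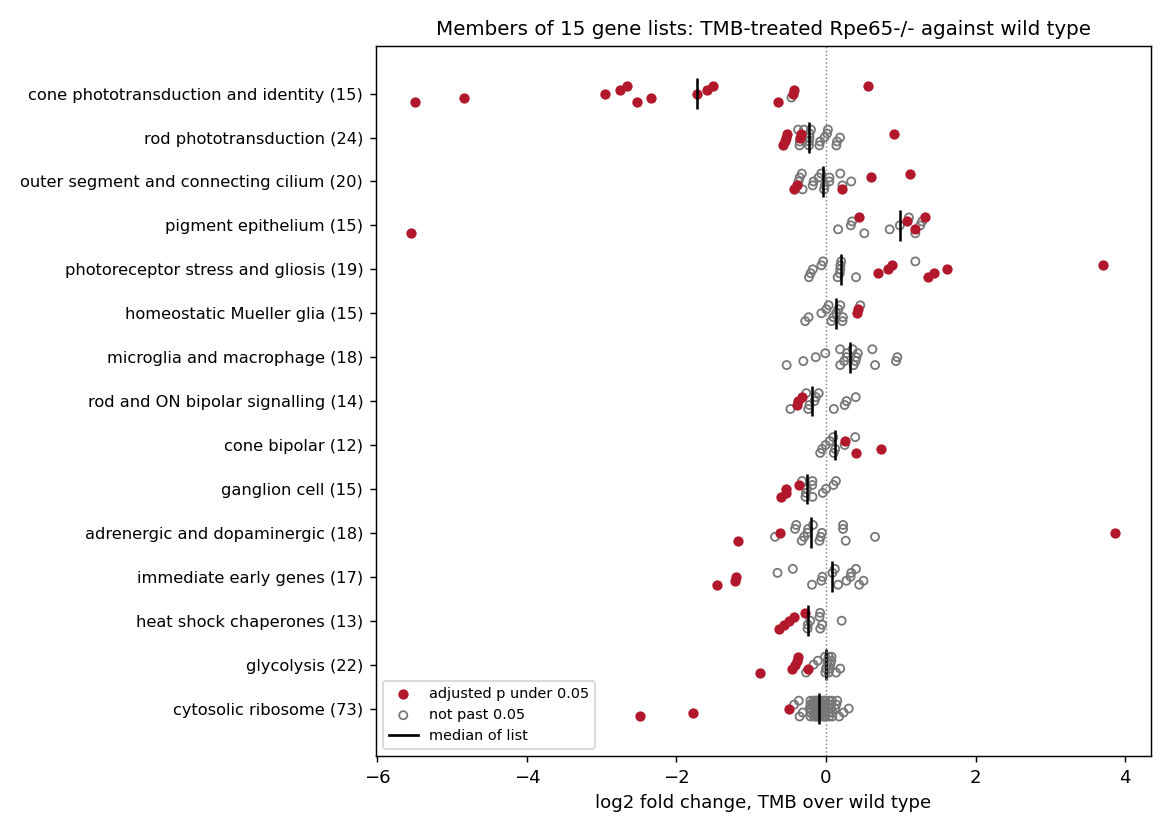
Log2 fold change of TMB over wild type for each tested member (points) of 15 gene lists, with the number tested in parentheses, filled red where the adjusted p was under 0.05, and the list median as a black line. The cone list has its median at -1.73 and 13 members called lower, and the stress and gliosis list has 7 members called higher.

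Photoreceptor stress and gliosis genes were higher where they were called. Of 19 tested, 7 rose and 0 fell in TMB libraries, with a median of 0.20. Without wild type F4 9 were higher and 1 lower, with a median of 0.46, and with all libraries vehicle had 9 higher and 1 lower, with a median of 0.51. With all libraries, 15.7% of all genes were called higher in vehicle and 4.51% with TMB. In TMB libraries all 7 lay above wild type without overlap except A2m. Edn2, endothelin 2, on chromosome 4 (120161206 to 120167360), had 51.3, 64.4, 64.9, 49.98 and 41.7 CPM in TMB libraries, against 6.11, 2.37, 3.99 and 4.42 CPM in wild-type libraries. Every TMB library was above 40 CPM and every wild-type library under 7. The gene rose by 3.70 (SE 0.40, adjusted p = 2.6e-05), and by 3.80 in vehicle.

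Gfap, the glial filament gene on chromosome 11 (102887336 to 102900912), had 57.1, 57.3, 68.8, 46.6 and 46.5 CPM in TMB libraries, against 28.6, 16.4, 17.4 and 23.4 CPM in wild-type libraries (1.37, SE 0.23, adjusted p = 0.00116). The 2 male-letter TMB libraries were lowest, and still above wild type. Stat3, a transcription factor of cytokine signalling, had 111, 121, 139, 115 and 117 CPM in TMB libraries, against 64.7, 62.7, 60.6 and 72.8 CPM in wild-type libraries (0.89, SE 0.09, adjusted p = 9.04e-06). Osmr, a cytokine receptor that signals through it, had 14.8, 15.5, 16.5, 14.5 and 13.7 CPM in TMB libraries, against 9.21, 9.36, 7.98 and 7.08 CPM in wild-type libraries (0.83, SE 0.12, adjusted p = 0.00031). Cebpd, a transcription factor of the acute response, had 12.4, 21.5, 19.8, 12.4 and 11.6 CPM in TMB libraries, against 6.88, 4.24, 3.30 and 8.42 CPM in wild-type libraries (1.45, SE 0.28, adjusted p = 0.00375). TMB F3 and TMB F4 were highest. Bcl3 (1.62, adjusted p = 0.0469) and A2m (0.69, adjusted p = 0.0473), named after their values were seen, passed narrowly. Fgf2, a photoreceptor survival factor, averaged 43.8 CPM in TMB libraries and 50.5 CPM in wild-type libraries and was not called (-0.20, adjusted p = 0.513), whereas without wild type F4 it was called lower (-0.39, adjusted p = 0.0275).

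Of 15 homeostatic Mueller glia genes 2 rose, Prdx6, an antioxidant enzyme (0.42, adjusted p = 0.016), and Car14, a carbonic anhydrase (0.42, adjusted p = 0.0294). Of 18 microglia genes 0 were called, against 6 higher in vehicle, where 15.7% of all genes were called higher, against 4.51% with TMB. The medians of the microglia list were close, 0.32 with TMB and 0.41 in vehicle. The direct test of TMB against vehicle called 0 of all 16782 genes, so its lack of calls says nothing particular about this list. In TMB libraries Tmem119 (0.94, adjusted p = 0.1) and C1qb (0.62, adjusted p = 0.118), markers of microglia, did not pass. Both did with wild type F4 left out (1.10, adjusted p = 0.0295, and 0.88, adjusted p = 0.00646), among 4 of 18 microglia genes called higher, a share near that of all genes in that fit. The Mueller glia list then had 4 higher and 2 lower. Of 19 interferon and antigen presentation genes 4 were called lower. Wild type F4 had the highest mean level of this list, at 1.48 (log2), against -0.30 to 0.40 in the other wild-type libraries and -0.36 to 0.08 in TMB libraries. Ifit1, an interferon-induced gene, was at 1.64 to 3.65 CPM in TMB libraries, against 23.9 CPM in wild type F4 and 4.40 to 6.42 CPM in the other wild-type libraries. Without that library 2 were lower and 1 higher, and Usp18 and Rsad2 were no longer called (adjusted p = 0.0706 and 0.0741).

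The drugs act on adrenergic and dopamine receptors, and 12 receptor genes of these families were tested. Adrb1, the beta-1 receptor and the target of metoprolol, had 11.2, 13.6, 14.7, 13.7 and 9.51 CPM in TMB libraries, against 28.0, 26.1, 22.1 and 37.0 CPM in wild-type libraries. All TMB libraries lay below wild type, and it fell by 1.17 (SE 0.16, adjusted p = 0.000245). Vehicle libraries were at 10.6 to 15.6 CPM, a change of -1.07 from wild type, and TMB and vehicle overlapped. Adra2a, an alpha-2 receptor, had 16.3, 26.4, 25.1, 24.5 and 24.0 CPM in TMB libraries, against 29.3, 33.5, 34.0 and 45.7 CPM in wild-type libraries (-0.61, SE 0.14, adjusted p = 0.0147).

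The other 10 receptor genes were not called, and most of them are given here. The alpha-1 receptors, to which tamsulosin binds, were low: Adra1a averaged 1.80 CPM in TMB libraries and 1.53 CPM in wild-type libraries, Adra1b 2.89 CPM in TMB libraries and 2.48 CPM in wild-type libraries, and Adra1d 3.93 CPM in TMB libraries and 2.49 CPM in wild-type libraries. Drd2, the receptor bromocriptine stimulates, had 19.8, 26.7, 28.5, 33.0 and 27.4 CPM in TMB libraries, against 27.3, 23.4, 25.0 and 36.8 CPM in wild-type libraries (-0.05, SE 0.15, adjusted p = 0.837), with full overlap. Drd4, the dopamine receptor of photoreceptors, had 133, 191, 208, 171 and 152 CPM in TMB libraries, against 108, 130, 109 and 221 CPM in wild-type libraries (0.26, SE 0.18, adjusted p = 0.382). Wild type F4 was the highest of the 9, and without it Drd4 changed by 0.56 (adjusted p = 0.00137). Adra1d became called in the same fit (0.99, adjusted p = 0.00307). Drd1 passed there as well (-0.23, adjusted p = 0.0496), and with all libraries it did not (-0.17, adjusted p = 0.274). Drd5 (-0.40), Adra2b (-0.32) and Adra2c (-0.07) were not called with all libraries.

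Slc6a2, the noradrenaline transporter on chromosome 8 (92960079 to 93001667), had 9.44, 19.7, 15.2, 10.6 and 6.71 CPM in TMB libraries, against 0.851, 0.187, 1.72 and 0.631 CPM in wild-type libraries. The lowest TMB library was above the highest wild-type library, and the gene rose by 3.87 (SE 0.42, adjusted p = 2.66e-05). Th, an enzyme of dopamine synthesis in amacrine cells, named after its values were seen, averaged 2.40 CPM in TMB libraries and 2.54 CPM in wild-type libraries (adjusted p = 0.831). Hdc, which makes histamine, had 2.00, 1.06, 0.979, 1.38 and 1.44 CPM in TMB libraries, against 28.9, 35.1, 31.4 and 38.6 CPM in wild-type libraries (-4.61, SE 0.25, adjusted p = 9.61e-09). Vehicle was at 0.530 to 1.89 CPM.

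**Figure D4:**
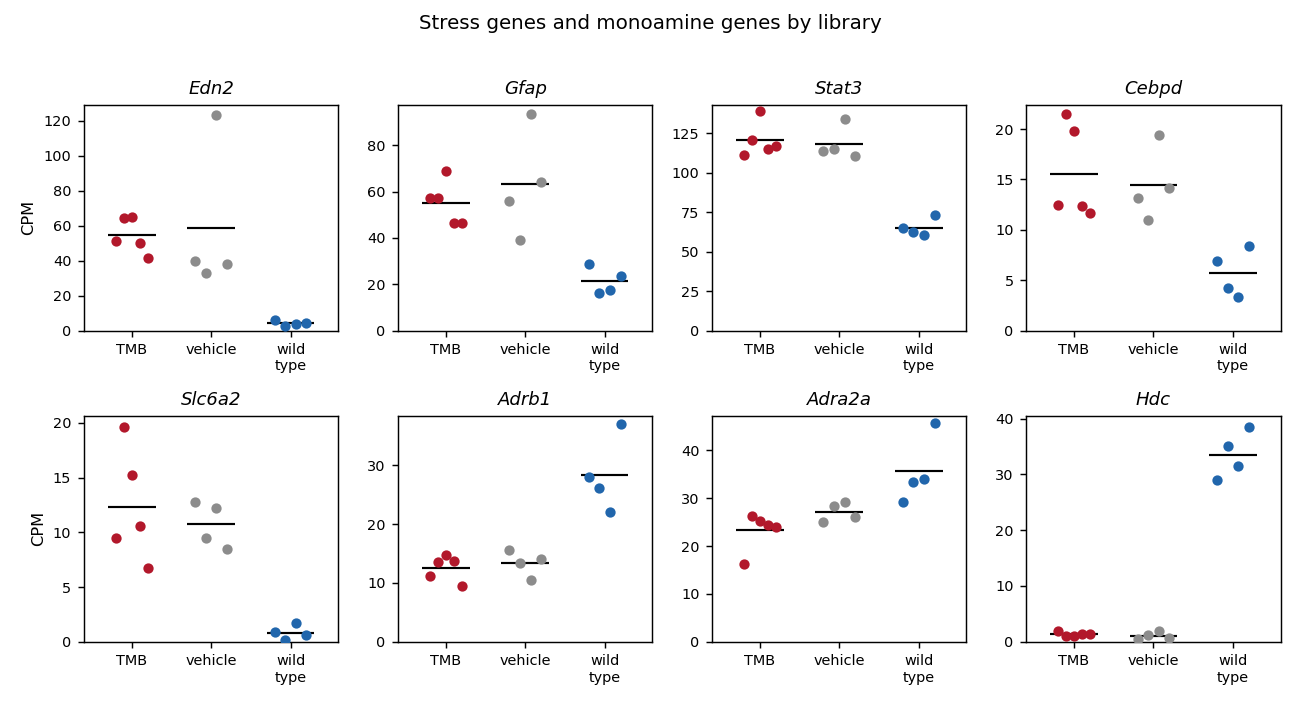
CPM in each library of TMB (red), vehicle (grey) and wild type (blue) for 4 stress genes and 4 monoamine genes, with black lines at group means and linear axes from 0. TMB lies above wild type in Edn2, Gfap, Stat3, Cebpd and Slc6a2 and below it in Adrb1, Adra2a and Hdc.

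Pigment epithelium genes, in a retina sample, mark cells carried along in dissection as well as expression. Besides Rpe65 14 were tested. Of these 4 rose and 0 fell, with a median over all 15 of 0.99. Krt18 had 72.5, 61.5, 73.7, 57.6 and 68.2 CPM in TMB libraries, against 29.6, 36.2, 23.2 and 36.5 CPM in wild-type libraries (1.09, SE 0.13, adjusted p = 6.93e-05). Rrh, peropsin (0.43, adjusted p = 0.0229), Slc6a20a, an amino acid transporter (1.19, adjusted p = 0.0253) and Slc16a8, a lactate transporter (1.33, adjusted p = 0.0484), were the others. Rgr and Ttr, named after their values were seen, had 49.9 to 63.5 and 46.6 to 66.5 CPM in TMB libraries, against 17.7 to 34.6 and 15.9 to 34.8 CPM in wild-type libraries, without overlap and without passing the test (adjusted p = 0.0797 and 0.0643). Both passed with wild type F4 left out (Rgr 1.15, adjusted p = 0.0491, and Ttr 1.28, adjusted p = 0.0296). The mean centred level of the list, Rpe65 included, was -0.24 to 0.46 (log2) in TMB libraries and -0.60 to 0.12 in wild-type libraries, and the pigment-forming genes Tyrp1 (5.31 to 36.9 CPM in TMB libraries and 6.46 to 16.0 CPM in wild-type libraries) and Dct, named after their values were seen, overlapped between the groups. The part of carried tissue in the higher values was not tested. Of the 15 genes 8 were called higher when wild type F4 was left out.

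Chaperone, early-response and glycolysis genes were lower where called with all libraries. Of 13 heat shock chaperone genes 5 fell and 0 rose (6 and 0 without wild type F4), with a median of -0.24 that was -0.09 without that library. Hspa8, the constitutive cytosolic chaperone, averaged 596 ± 38.2 CPM in TMB libraries and 918 ± 40.2 CPM in wild-type libraries (SD, n = 5 and 4; -0.62, SE 0.08, adjusted p = 9.85e-05), Hsp90aa1 changed by -0.49 (adjusted p = 0.022), Hspa4l by -0.56, Dnaja1 by -0.43 and Hspd1 by -0.28. Hspa8, Hsp90aa1 and Hspd1 share 39.4%, 47.5% and 42.1% of their transcript sequence, in stretches of 50 bases, with pseudogenes or other genes, so their counts are uncertain. Of 17 immediate early genes 3 fell: Nr4a1 (-1.22, SE 0.19, adjusted p = 0.000761), Nr4a3 (-1.46, adjusted p = 0.00694) and Arc (-1.20, adjusted p = 0.0155). Jun averaged above wild type and was not called (0.44, adjusted p = 0.0908). Without wild type F4, which had 45.2 CPM of Jun against 27.2 to 28.6 in its group, Jun was called higher (0.66, adjusted p = 0.000624), and the 17 genes then had 5 higher and 3 lower.

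Of 22 glycolysis genes 6 fell and 0 rose. Pgk1, Eno1 and Pkm, which were among the 6, share 53.9%, 26.0% and 25.8% of their transcript sequence with pseudogenes or other genes. Their counts are therefore uncertain. The sum of Eno1 and its copy Eno1b overlapped between the groups, at 1390 to 1550 CPM in TMB libraries and 1500 to 2340 CPM in wild-type libraries. Hk2, the hexokinase that starts the pathway in photoreceptors, had 203, 224, 205, 282 and 270 CPM in TMB libraries, against 425, 422, 464 and 436 CPM in wild-type libraries (-0.88, SE 0.11, adjusted p = 0.000112). The 2 male-letter TMB libraries were highest of the 5. Pkm, the pyruvate kinase, had 1343, 1577, 1431, 1495 and 1478 CPM in TMB libraries, against 1734, 1769, 1633 and 2682 CPM in wild-type libraries (-0.42, adjusted p = 0.0423), and without wild type F4 it changed by -0.22 (adjusted p = 0.0192). In that fit 6 glycolysis genes were lower and 6 higher. Cholesterol synthesis genes were 4 lower of 23 (7 lower and 3 higher without wild type F4), among them Sc5d, a late enzyme of the pathway (-0.62), and respiratory chain genes 3 lower and 1 higher of 77. Without wild type F4, 21 of 77 respiratory chain genes were higher and 9 lower. Their median was 0.039, against 0.027 for all genes, of which that fit called 19.6% higher and 18.4% lower.

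Of 15 cell death genes 2 fell, and without wild type F4 4 fell and 3 rose. Bcl2, which blocks apoptosis, had 15.02, 13.3, 10.9, 13.7 and 12.1 CPM in TMB libraries, against 34.1, 30.3, 42.0 and 25.9 CPM in wild-type libraries (-1.35, SE 0.15, adjusted p = 3.74e-05). Circadian clock genes were 3 higher of 18, Tef (0.30), Per3 (0.37) and Bhlhe40 (0.39), and without wild type F4 7 were higher and 5 lower.

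Among the largest differences were genes with few wild-type counts. Hist1h2bq had 458 counts over the TMB libraries, against 2 over the wild-type libraries, a ratio of 188 (95% exact interval 51.7 to 1560, counting error only), and 97.3% of its sequence is shared with other histone genes. It was uneven within Rpe65-/-: vehicle M4 had 1 count, like wild type, whereas the other vehicle libraries had 84 to 108. Eno1b had 184, 210, 194, 187 and 185 CPM in TMB libraries, against 2.48, 2.62, 2.41 and 4.14 CPM in wild-type libraries (6.04, SE 0.15, adjusted p = 6.68e-13), and shares 85.2% of its sequence with Eno1 and its copies.

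A ribosomal pair showed opposite values. Rpl34-ps1, a pseudogene whose sequence is shared in full with Rpl34 and other copies, had 28.3, 25.4, 25.3, 24.7 and 25.3 CPM in TMB libraries, against 0.155, 0.437, 0.344 and 0.421 CPM in wild-type libraries. Its parent Rpl34 had 24.8, 26.2, 24.0, 21.4 and 27.7 CPM in TMB libraries, against 77.4, 76.6, 80.9 and 105 CPM in wild-type libraries (-1.77, SE 0.11, adjusted p = 2.82e-08). Their sum was 46.1 to 53.2 CPM in TMB libraries and 77.0 to 105 CPM in wild-type libraries, of which the pseudogene took 47.7% to 53.6% in TMB libraries and 0.2% to 0.567% in wild-type libraries. Tma7-ps likewise took 6.38% to 15.9% of the sum with Tma7 in TMB libraries and 0.161% to 0.402% in wild-type libraries. Reads of such pairs cannot be assigned to one copy with certainty.

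Tmem26, Sox30 and Spc25 share 0.0% of their sequence with other genes. Tmem26, a membrane protein gene, had 42.7, 46.6, 44.4, 40.0 and 32.8 CPM in TMB libraries, against 2.86, 2.37, 3.23 and 2.95 CPM in wild-type libraries (3.85, SE 0.21, adjusted p = 1.13e-08). Sox30, a transcription factor gene of the testis, averaged 19.6 ± 3.90 CPM in TMB libraries and 1.21 ± 0.467 CPM in wild-type libraries (SD, n = 5 and 4; 4.02, SE 0.26, adjusted p = 6.83e-08). Spc25, a kinetochore gene, had 23.5, 19.2, 18.0, 19.8 and 21.4 CPM in TMB libraries, against 181, 153, 177 and 110 CPM in wild-type libraries (-2.93, SE 0.13, adjusted p = 1.05e-09). Abhd14a had 11.6, 10.9, 12.1, 8.91 and 10.7 CPM in TMB libraries, against 76.4, 80.0, 78.4 and 84.2 CPM in wild-type libraries (-2.88, SE 0.34, adjusted p = 4.73e-05), and Rpl29, 0.01 Mb away on chromosome 9, changed by -2.48 (SE 0.30, adjusted p = 5.91e-05), with 35.5% of its sequence shared. In vehicle F2 both were nearer wild type, at 47.7 and 90.6 CPM, than in the other vehicle libraries, at 11.4 to 13.96 and 29.4 to 35.9 CPM.

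By chromosome, the share of tested genes called ran from 5.99% on chromosome 17 (48 of 802) to 14.6% on chromosome 9 (145 of 995), with 13.2% on chromosome 3, which carries Rpe65, and 13.1% on chromosome 6. Of 240 windows of 10 Mb with at least 20 tested genes, the highest share was at 30 to 40 Mb of chromosome 8, where 16 of 39 genes were called (41.0%), then at 120 to 130 Mb of chromosome 3 (19 of 58, 32.8%). The window that holds Rpe65, at 150 to 160 Mb of chromosome 3, had 10 of 45 (22.2%). These shares stand beside 9.53% over all genes and were not tested.

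Of the genes called in vehicle, the 8 with the smallest unadjusted p of TMB against vehicle are given as a description, since that p chose them. Slc25a37, the mitochondrial iron importer mitoferrin on chromosome 14, had 65.2, 59.9, 21.7, 104 and 68.7 CPM in TMB libraries and 16.3, 17.8, 19.4 and 16.3 CPM in vehicle libraries, against 62.1, 72.0, 65.9 and 58.2 CPM in wild-type libraries. TMB F4 was near vehicle, TMB M5 above every wild-type library and the other 3 near wild type. Piwil2, a piRNA-pathway gene 1.13 Mb away on the same chromosome, had 5.87, 5.73, 2.45, 10.7 and 5.13 CPM in TMB libraries and 1.71 to 2.88 CPM in vehicle libraries, against 8.66 to 12.2 CPM in wild-type libraries. Its lowest and highest TMB libraries were the same, F4 and M5. Naa16, also on chromosome 14, was at 32.5 to 40.7 CPM in TMB libraries and 24.1 to 27.1 CPM in vehicle libraries, against 31.3 to 45.1 CPM in wild-type libraries.

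Clic6, a chloride channel family gene, was higher than wild type in both, at 11.1 to 15.5 CPM in TMB libraries and 17.7 to 19.3 CPM in vehicle libraries, against 5.50 to 6.99 CPM in wild-type libraries. It rose by 1.06 in TMB libraries (SE 0.12, adjusted p = 4.12e-05) and by 1.57 in vehicle. Rbm8a and Fzd7 were lower in TMB than in vehicle libraries, and Ccdc169 and Mir7-1 higher, each with TMB overlapping wild type and with an unadjusted p of TMB against vehicle of 0.000324 to 0.000476. The locus of Mir7-1 overlaps Hnrnpk, so its counts are uncertain. None of the 8 passed the adjusted test of TMB against vehicle, where the smallest adjusted p among them was 0.0971, for Slc25a37. That test called 0 of 16782 genes, whereas a fit of only the TMB and vehicle libraries called 2402 genes. The missing calls thus do not show that the 8 genes were alike on the 2 diets.

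**Figure D5:**
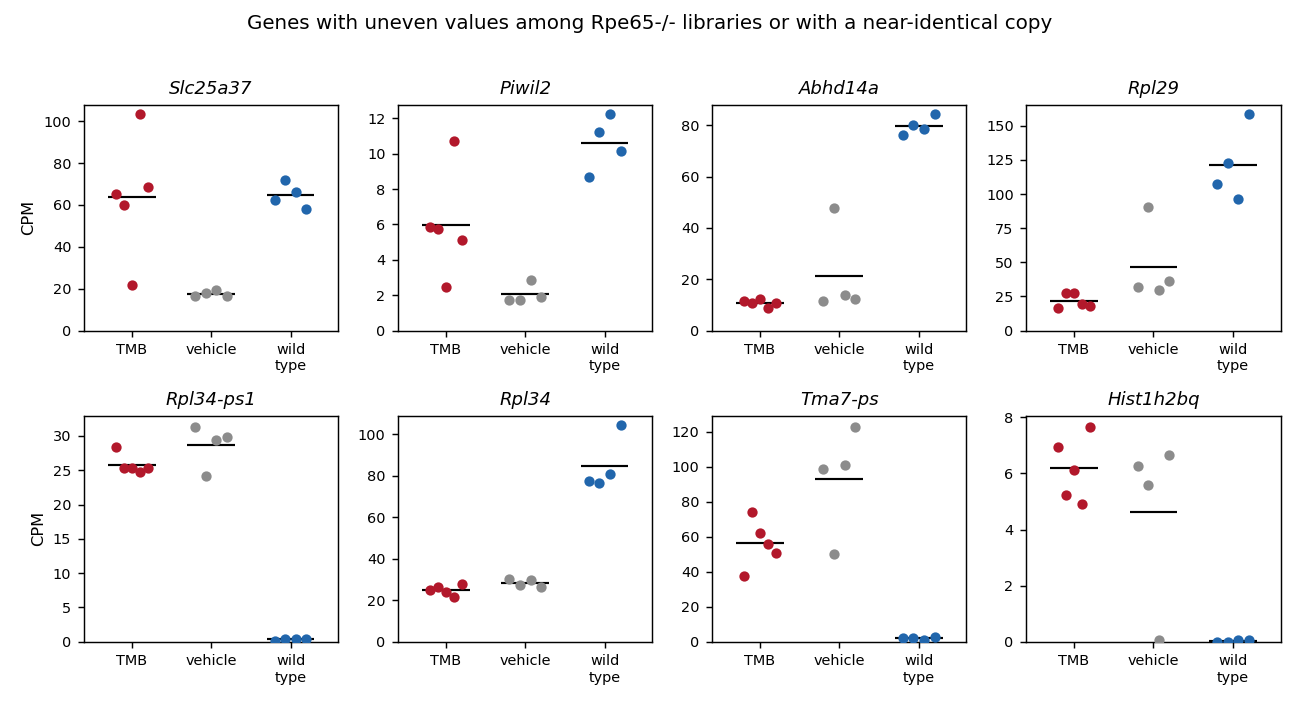
CPM in each library of TMB (red), vehicle (grey) and wild type (blue) for 8 genes with uneven values or a near-identical copy, with black lines at group means and linear axes from 0. TMB F4 is low and TMB M5 high in both Slc25a37 and Piwil2, vehicle F2 stands apart in Abhd14a, Rpl29 and Tma7-ps, and vehicle M4 lies with wild type in Hist1h2bq.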

How the data were processed

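Retinal polyA RNA was sequenced from 1 retina per mouse. Per the labels and the submitters' processing notes, the authors trimmed reads with Trimmomatic, checked them with FastQC, aligned them to the mouse genome (GRCm38, mm10) with STAR, counted reads per gene with HTSeq and tested them with DESeq2. For strand, the setting used in counting: not given in the sources used here. The deposited nuclear table holds raw counts for 29700 genes, and these counts were used as they stand. In it 4 further per-sample columns repeat the values of used columns and were not used, and neither were the authors' fold-change and p-value columns. The mitochondrial table was not used here.

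Counts of all 13 libraries were fitted together with edgeR 4.0.16 in R 4.3.3 (TMM scaling, filterByExpr, quasi-likelihood test, Benjamini-Hochberg adjustment over 16782 genes), and contrasts were taken for TMB against wild type, vehicle against wild type and TMB against vehicle. Levels are CPM with TMM factors. Alternatives were DESeq2 1.42.0, limma-trend (limma 3.58.1, prior count 2), another scaling, no filter or a mean count of 100, a sex term, only the groups compared, a minimum fold of 1.2, a GC correction, a replicate block and each library left out.

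The members and gene lists were chosen with earlier results of these data known. Genes were named as follows: Rpe65, then in each direction the 12 called genes with the largest change without overlap and a mean of at least 5 CPM, the 10 called genes with the highest mean CPM, up to 5 members of each list by adjusted p, all adrenergic and dopamine receptor genes, and the 8 genes called in vehicle with the smallest unadjusted p of TMB against vehicle. Not all are described. Predicted and sex-linked genes were passed over, 10 higher and 6 lower by size, 0 by abundance and 13 in the vehicle set. Promoter and transcript sequences came from RefSeq and the reference transcripts. Intervals and floors cover counting error only. Results for some named genes are not reported here.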

Additional observations from a re-analysis of the deposited data

Results flagged for a closer look

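Of 472 groups of 4 or 5 libraries examined (a gene or a list level in TMB or wild type), 29 (6.14%) held 1 library whose gap to the nearest other was wide for its group, and chance gives about 1 in 20. Of these 17 were in wild type F4, 9 in TMB F1 and 1 in each of wild type M1, M2 and F3. In TMB F1 the CPM was 28.3 for Rpl34-ps1 (others 24.7 to 25.4), 2.36 for Col4a6 (others 0.796 to 0.983), 19.3 for Ifit3 (others 12.3 to 13.5), 16.3 for Adra2a (others 24 to 26.4) and 1210.0 for Eno1 (others 1320.0 to 1350.0). It was 3.08 for Casp8 (others 1.64 to 1.85) and 1.43 for Th (others 2.49 to 2.94). The mean centred log2 level of gene lists in TMB F1 was -0.27 for ganglion cell (others -0.0898 to -0.027) and -0.122 for photoreceptor ribbon synapse (others -0.0365 to -0.0172). In wild type F4 the CPM was 4.14 for Eno1b (others 2.41 to 2.62), 2680.0 for Pkm (others 1630.0 to 1770.0), 2280.0 for Agpat3 (others 1610.0 to 1650.0), 114 for Rdh8 (others 79.2 to 84.1) and 95.3 for Slc17a6 (others 143 to 155). It was 823 for Stx3 (others 1040.0 to 1080.0), 34 for Nr4a1 (others 22.7 to 23.7), 45.2 for Jun (others 27.2 to 28.6), 228 for Hsp90b1 (others 339 to 363) and 328 for Gnb3 (others 241 to 249). It was 45.2 for Gngt2 (others 16.4 to 18.8), 19.6 for Cngb3 (others 35.3 to 39.4) and 661 for Tma7 (others 769 to 779). The mean centred log2 level of gene lists in wild type F4 was 0.23 for rod phototransduction (others 0.0738 to 0.0957), 0.181 for photoreceptor ribbon synapse (others -0.0126 to 0.000378), 0.33 for unfolded protein response (others -0.0575 to -0.028) and 0.0238 for circadian clock (others -0.0895 to -0.0731). The other CPM values were 0.387 for Hrh1 (others 0.999 to 1.05) in wild type M1, 2.43 for Adra1a (others 1.17 to 1.26) in wild type M2 and 412 for Ppia (others 447 to 455) in wild type F3.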

How the results depend on the processing

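TMB against wild type called 1600 genes. DESeq2 called 2184 and limma-trend 1585. The count moved to 1053 with only the groups compared, 550 against a minimum fold of 1.2, 2642 with the GC trend removed, and, chosen after seeing the data, 6381 with only the groups compared and wild type F4 dropped, and 3305 with the GC trend removed and that library dropped. With a replicate block it was 567, of which 542 were among the 1600. Same-numbered libraries correlated at 0.12, -0.17 and 0.23, and only TMB F4 correlated best with its own number. So few correlations cannot decide whether the numbers pair the samples. Under the block 50 of 112 called named genes were not called. Leaving out 1 library gave 896 to 6490 genes. Vehicle against wild type (5697) gave 2861 with only the groups compared, 2224 with the replicate block, 1636 against the minimum fold, 3237 with the GC trend removed and 2849 to 9508 with 1 library left out. TMB against vehicle (0) gave 63 with DESeq2, 2 without the filter, 2402 with only the groups compared, 2 with the GC trend removed, 361 with that and without wild type F4, and 0 to 3 with 1 library left out. The causes of these moves were not tested.

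Of 189 named genes 112 were called, all 112 kept their direction under every alternative that tested them, and 52 were called in each. Direction turned in 12 named or followed genes, none of them called with all libraries (log2 values). Adra2c was 0.074 with limma-trend, 0.053 with the block, 0.391 with only the groups compared when wild type F4 was dropped, and -0.318 to 0.39 with 1 library left out. Alas2 was 0.101 with the block and -0.213 to 0.13 with 1 library left out. Col3a1 was 0.382 with the block and -0.759 to 0.109 with 1 left out. Mir7-1 was 0.018 with the block, 0.062 with the GC trend removed and wild type F4 dropped, and -0.358 to 0.27 with 1 left out. Hnmt was 0.05 with the GC trend removed, 0.114 with wild type F4 dropped as well, and -0.218 to 0.016 with 1 left out. Naa16 was 0.007 and 0.011 in these same GC fits. Slc25a37 ran from -0.262 to 0.204, Drd2 from -0.135 to 0.104, Th from -0.2 to 0.06 and Ckm from -0.568 to 0.064 with 1 left out. With only the groups compared and wild type F4 dropped, Drd2 was 0.106 and Th 0.062. With the GC trend removed and wild type F4 dropped, Ndufa4 was 0.017 and Rbm8a 0.125. Depth limits calls of genes under about 0.222 CPM.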
